A study of Mus musculus with 62 samples.

Results

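Casq2, Trdn, Cacna1s and Stac3 are 4 genes of the calcium store of striated muscle and of its coupling to the membrane voltage. They were chosen by name, and every transcript of theirs in the deposited count table was taken by its GENCODE M21 identifier, which gave 11 transcripts of 23877 and 4 gene names of 10476. Hearts came from 10-week-old wild-type mice (Rpl3l+/+, WT) and from Rpl3l-/- mice, in which CRISPR-Cas9 removed exon 2 of Rpl3l in the germ line, so every cell type of the heart carried the deletion. There were 4 mice of each genotype, each numbered library was a separate sample, and RNA-seq, Ribo-seq and Disome-seq were made from heart. C2C12 cells, a line of proliferating mouse myoblasts, carried a puromycin-selected retroviral vector that was empty (control) or expressed RPL3 or RPL3L, with 3 samples in each of the 3 arms, and gave RNA-seq and Ribo-seq. Rpl3l encodes a muscle paralogue of the ribosomal protein RPL3, and the comparisons ask how RNA level, ribosome occupancy and ribosome collisions differed without it in heart and with it in myoblasts. The study describes the C2C12 samples as biologically independent, and the labels do not say what separated them, so their p-values measure the spread between these samples.

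In striated muscle, calcium is kept in the sarcoplasmic reticulum, where calsequestrin binds it and the membrane protein triadin ties calsequestrin to the ryanodine receptor release channel. In skeletal muscle the voltage sensor that opens this channel is the L-type channel subunit encoded by Cacna1s, and the adaptor STAC3 is needed for that coupling. Cardiac muscle uses calcium entry through a different L-type channel subunit, Cacna1c, to trigger release, and mutations of CASQ2 or TRDN cause inherited arrhythmia.

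All 4 genes lie on the plus strand, and coordinates are those of GRCm38. Casq2, the cardiac calsequestrin, was represented by Casq2-201 (ENSMUST00000029454.11, chr3:102086415-102146514, 11 exons, 1245 coding bases) and Casq2-205. Trdn, triadin, was represented by Trdn-201 (ENSMUST00000095762.4, chr10:33083483-33476709, 38 exons, 2079 coding bases) and by the shorter Trdn-202, Trdn-207 and Trdn-208. Cacna1s had 3 transcripts, with Cacna1s-201 (ENSMUST00000112064.7, chr1:136052901-136119822, 44 exons) holding 5556 coding bases. Stac3 had 2 transcripts with the same coding sequence of 1080 bases, of which Stac3-201 is ENSMUST00000035839.2 (chr10:127501717-127508815, 12 exons). Values below are for these 4 transcripts, the ones with the most reads of their gene or tied with it, because isoforms share reads and are not independent of each other.

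The 4 Trdn transcripts share 787 coding bases, and after the last of these Trdn-208 parts from the others. Trdn-201, Trdn-202 and Trdn-207 hold later coding bases that another isoform has too. The coding ends are shown to mark where each transcript stops. Capitals mark the stop codon, and the first line gives the last 30 bases that all 4 share.
Trdn, last shared coding bases, chr10:33196096-33196125, plus strand: aagagatgccagctgtgcatgagcagaaag
Trdn-208, chr10:33196126-33196172, plus strand: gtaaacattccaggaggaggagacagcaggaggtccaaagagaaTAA
Trdn-202, chr10:33200198-33200257, plus strand: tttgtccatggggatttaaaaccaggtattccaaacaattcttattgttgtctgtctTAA
Trdn-207, chr10:33233926-33233985, plus strand: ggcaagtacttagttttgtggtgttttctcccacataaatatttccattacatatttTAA
Trdn-201, chr10:33474459-33474518, plus strand: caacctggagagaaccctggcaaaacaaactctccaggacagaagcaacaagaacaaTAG
Trdn-208 continues into the bases directly after the last shared one and reaches its stop codon within 47 bases. Of the coding bases, 1160 belong to Trdn-201 alone, 56 to Trdn-207 and 32 to Trdn-202, so the end shown for Trdn-202 is partly shared.

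The coding sequences of Casq2 and Trdn are rich in codons for charged residues, and a stretch of 20 codons of each is shown for that reason. Capitals mark codons for aspartate and glutamate in Casq2, and codons for lysine and glutamate in Trdn.
Casq2, last 20 codons before the stop, chr3:102145368-102145427, plus strand: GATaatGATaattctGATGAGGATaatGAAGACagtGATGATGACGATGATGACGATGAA
Trdn, shared coding stretch across an exon junction, chr10:33186694-33196001, plus strand: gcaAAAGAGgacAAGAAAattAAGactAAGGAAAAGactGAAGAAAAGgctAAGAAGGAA
In Casq2, 15 of these 20 codons are for an acidic residue, and in Trdn 14 of 20 are for lysine or glutamate. The Trdn stretch was picked as the 20 shared codons with the most lysine and glutamate codons, so its share is not typical of Trdn. Over the whole of Casq2-201, 15.2% of 415 codons are for aspartate, a share higher than in 99.9% of 23162 transcripts with a coding sequence, whose median was 4.7%. Lysine takes 21.5% of the 693 codons of Trdn-201, again a higher share than in 99.9% of transcripts, with a median of 5.4%. Proline takes 4.1% of Casq2 codons and 7.6% of Trdn-201 codons, and alanine 4.6% and 6.5%.

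Total counts per library were 3594696 to 22425296 in heart RNA-seq, 1606700 to 3192090 in heart Ribo-seq and 39016 to 175747 in Disome-seq, and 7647102 to 29746110 in RNA-seq and 3167026 to 6093268 in Ribo-seq of C2C12. Levels are CPM, a count scaled to the library's total times a TMM normalization factor, which ran from 0.782 to 1.26 in Disome-seq. Values summed over a group and values of single disome columns are scaled to read totals alone. Levels of different genes are compared per kilobase of coding sequence, the region the counts were inferred to cover. Rpl3l itself was at 369 to 541 CPM in WT heart RNA-seq and at 24.4 to 40.6 CPM in Rpl3l-/- heart, and rose from at most 0.568 CPM in control C2C12 to at least 1999.7 CPM in the RPL3L arm. The 3 cardiomyocyte markers in the table summed to 32739 to 46032 CPM over the 8 heart RNA-seq libraries. Markers of airway, which lies beside the heart, varied within genotypes, with 3 of 6 listed genes in the table and a sum of 0.18 to 1245 CPM in heart RNA-seq. In these bulk samples, fewer cells of a type and less RNA per cell cannot be told apart.

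For the 4 transcripts named above, Casq2 was the most abundant in heart. Their order, Casq2, Trdn, Cacna1s, Stac3, was the same in RNA-seq and Ribo-seq of both genotypes. In WT RNA-seq, Casq2 was at 404 ± 57.0 CPM per kilobase (SD, n = 4) and Trdn at 188 ± 22.3. Cacna1s was at 4.22 ± 0.796 CPM per kilobase and Stac3 at 0.281 ± 0.326. No 2 neighbours in this order overlapped between libraries. The place of Trdn depended on the isoform, since Trdn-208 is shorter with nearly as many reads. Trdn-208 was at 424 ± 56.6 CPM per kilobase in WT RNA-seq. In Rpl3l-/- RNA-seq it was at 454 ± 41.8, with Casq2 at 435 ± 66.3. Its libraries overlapped those of Casq2 in both genotypes, so the order of Casq2 and Trdn in RNA-seq was not settled. In WT Ribo-seq, which counts the footprints of single ribosomes, Casq2 stood at 999 ± 14.8 CPM per kilobase. It was 6.25-fold above Trdn-201 at 159.9 ± 6.41, where in RNA-seq it stood 2.15-fold above. Trdn-208, at 361 ± 20.0 in WT Ribo-seq, was also below Casq2. Cacna1s followed at 0.947 ± 0.371 and Stac3 at 0.071 ± 0.142. In Rpl3l-/- Ribo-seq, the libraries of Cacna1s and Stac3 overlapped, and those of the other neighbours did not.

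**Figure D1:**
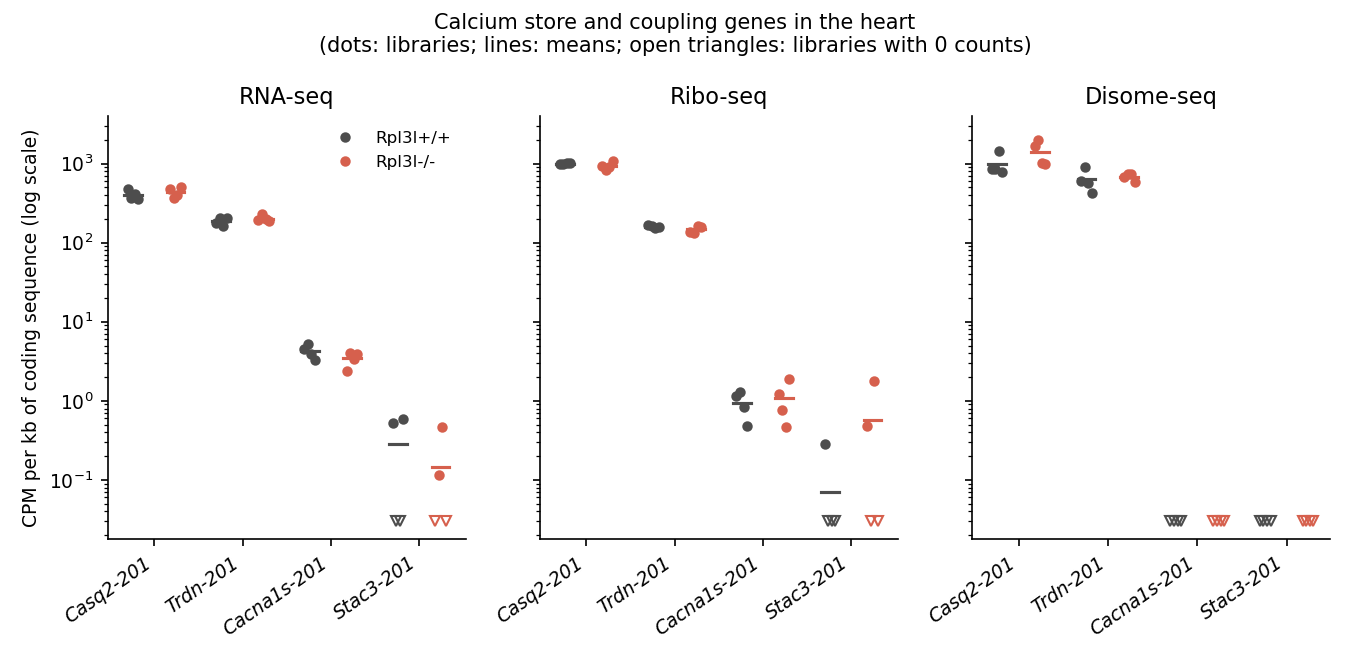
CPM per kilobase of coding sequence, on a log axis, of the 4 genes in each heart library of RNA-seq, Ribo-seq and Disome-seq, with Rpl3l+/+ and Rpl3l-/- libraries as dots, means as lines and libraries with 0 counts as open triangles. In WT RNA-seq the means step down from 404 for Casq2 to 188 for Trdn, 4.22 for Cacna1s and 0.281 for Stac3, and in Disome-seq Cacna1s and Stac3 are at 0 in every library.

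Casq2 RNA, which encodes the calcium buffer of the store, did not differ between genotypes beyond the spread of the libraries. The 4 WT hearts were at 599, 453, 516 and 447 CPM in RNA-seq, and the 4 Rpl3l-/- hearts at 595, 450.2, 495 and 626 CPM. The ranges overlapped almost wholly, and the log2 fold change was 0.11 ± 0.13 (SE, 95% interval -0.18 to 0.39, edgeR quasi-likelihood adjusted p = 0.999). In Ribo-seq, WT hearts were at 1222, 1236, 1255 and 1263 CPM and Rpl3l-/- hearts at 1158, 1026, 1121 and 1346 CPM. The WT hearts lay close together, and 3 of the 4 Rpl3l-/- hearts were below all of them and 1 above. The log2 fold change was -0.10 ± 0.09 (interval -0.28 to 0.09, edgeR adjusted p = 0.612).

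Trdn, the anchor of calsequestrin, gave a like picture. RNA-seq read 373, 429.8, 334 and 427 CPM in WT and 404, 471, 409.5 and 386 CPM in Rpl3l-/- hearts. Ribo-seq read 349, 336, 317 and 329 CPM in WT and 284, 277, 336 and 323 CPM in Rpl3l-/- hearts. The genotypes overlapped in both assays, with the lowest 2 Ribo-seq values in Rpl3l-/- hearts. The log2 fold changes were 0.10 ± 0.12 in RNA-seq (interval -0.15 to 0.35, edgeR adjusted p = 0.999) and -0.13 ± 0.09 in Ribo-seq (interval -0.31 to 0.06, adjusted p = 0.506).

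Cacna1s, the skeletal voltage sensor, was detected in every heart at a low level. WT hearts were at 25.0, 28.7, 21.5 and 18.5 CPM in RNA-seq, and Rpl3l-/- hearts at 13.3, 22.5, 18.9 and 21.7 CPM. In Ribo-seq the values were 6.44, 7.29, 4.68 and 2.64 CPM in WT and 6.7, 4.21, 2.58 and 10.5 CPM in Rpl3l-/- hearts, from 4 to 21 reads a library. The genotypes overlapped in both, with the Ribo-seq values of Rpl3l-/- hearts running from the lowest to the highest of all 8. The log2 fold changes were -0.28 ± 0.19 in RNA-seq (interval -0.68 to 0.12, edgeR adjusted p = 0.999) and 0.12 ± 0.38 in Ribo-seq (interval -0.70 to 0.93, adjusted p = 0.915). The 6 skeletal muscle fibre markers in the table, of 11 listed, summed to 27.3 to 67.7 CPM in WT and 18.0 to 50.1 CPM in Rpl3l-/- heart RNA-seq. In Ribo-seq the same markers summed to 684 to 949 CPM in WT and 866 to 1121 CPM in Rpl3l-/- heart. Values of the single genes are not given there, and reads could map to more than 1 place. The source of these footprints and the part of the markers in the Cacna1s level were not tested.

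Stac3, the coupling adaptor, was at the edge of detection in heart. Its RNA-seq counts were 2, 0, 0 and 9 in WT and 0, 2, 12 and 0 in Rpl3l-/- hearts. Over all reads of a group this is 0.404 CPM in WT (exact Poisson 95% interval 0.202 to 0.723) and 0.218 CPM in Rpl3l-/- (0.119 to 0.366), where the intervals cover counting error only. Ribo-seq held 1 read in the WT group and 4 in the Rpl3l-/- group. Transcripts were tested where the mean count was at least 10 in each assay of the fit, and Stac3 was therefore not tested in heart.

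Among the 9 member transcripts that passed this filter in heart, none was called in RNA-seq or Ribo-seq at an adjusted p under 0.05, and none had an unadjusted p under 0.05. DESeq2 called none either. Over all transcripts tested, 0.0130% of 15394 were called in RNA-seq and 0.654% of 12695 in Ribo-seq.

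Translation efficiency (TE), the ratio of Ribo-seq to RNA-seq CPM, set the 3 measured genes apart in level. In WT heart it was 2.47 for Casq2, above 76.4% of 12483 transcripts, and 0.85 for Trdn, above 23.3%. For Cacna1s it was 0.224, above 1.87% of transcripts. Casq2 thus had more footprints than its RNA share and Cacna1s far fewer, and the order was the same in Rpl3l-/- heart at 2.15, 0.73 and 0.314.

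Between genotypes, TE was tested as the interaction of genotype and assay. The log2 change was -0.20 ± 0.17 for Casq2 (interval -0.55 to 0.15, edgeR adjusted p = 0.876) and -0.22 ± 0.15 for Trdn (interval -0.53 to 0.09, adjusted p = 0.836). For Cacna1s it was 0.40 ± 0.44 (interval -0.52 to 1.31, adjusted p = 0.93). No member transcript of 9 was called by edgeR or DESeq2, none had an unadjusted p under 0.05, and 0% of 12483 transcripts were called by edgeR.

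Disome-seq counts the longer footprints left by 2 stacked ribosomes, and only Casq2 and Trdn had such reads. Casq2 read 1058, 1073, 1797 and 976 CPM in WT and 2087, 2463, 1257 and 1243 CPM in Rpl3l-/- hearts, from 46 to 287 reads a library. Trdn read 1248, 1899, 1194 and 891 CPM in WT and 1404, 1522, 1553 and 1223 CPM in Rpl3l-/- hearts. For Casq2, Rpl3l-/- hearts 1 and 2 exceeded every WT heart, and hearts 3 and 4 lay inside the WT range because WT heart 3 was high. For Trdn the WT hearts spanned the whole Rpl3l-/- range. Cacna1s and Stac3 had no disome read in any of the 8 libraries, and 3 reads over a group would be 8.76 CPM in WT and 8.35 CPM in Rpl3l-/- heart, so a level under these was not detectable.

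The log2 change of the disome level in Rpl3l-/- against WT heart was 0.53 ± 0.31 for Casq2 (interval -0.11 to 1.16, edgeR adjusted p = 0.99) and 0.13 ± 0.29 for Trdn (interval -0.47 to 0.73, adjusted p = 0.99). None of the 6 member transcripts tested was called by edgeR or DESeq2, and none had an unadjusted p under 0.05, where 0.147% of 1365 transcripts were called. Rpl3l-/- disome libraries 1 and 2, the highest for Casq2, also held the most airway marker reads, at 2676 and 3299 CPM against 0 and 40.8 CPM in libraries 3 and 4. WT library 3 was high for Casq2 with airway markers at 0 CPM, and the part of these markers in the result was not tested.

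The disome to monosome ratio, disome CPM over Ribo-seq CPM of the same-numbered heart, was far higher for Trdn than for Casq2. For Casq2 it was 0.865, 0.868, 1.43 and 0.773 in WT and 1.8, 2.4, 1.12 and 0.923 in Rpl3l-/- hearts. For Trdn it was 3.58, 5.66, 3.77 and 2.71 in WT and 4.94, 5.49, 4.62 and 3.78 in Rpl3l-/- hearts. The ratio of Trdn exceeded that of Casq2 in 8 of 8 hearts, by 2.29- to 6.52-fold with a median of 3.8. From group means, Trdn-201 at 3.94 in WT heart ranked above 93.0% of 1365 transcripts and Casq2 at 0.985 above 36.1%. In Rpl3l-/- heart, Trdn-201 at 4.67 ranked above 95.4% and Casq2 at 1.52 above 65.9%.

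**Figure D2:**
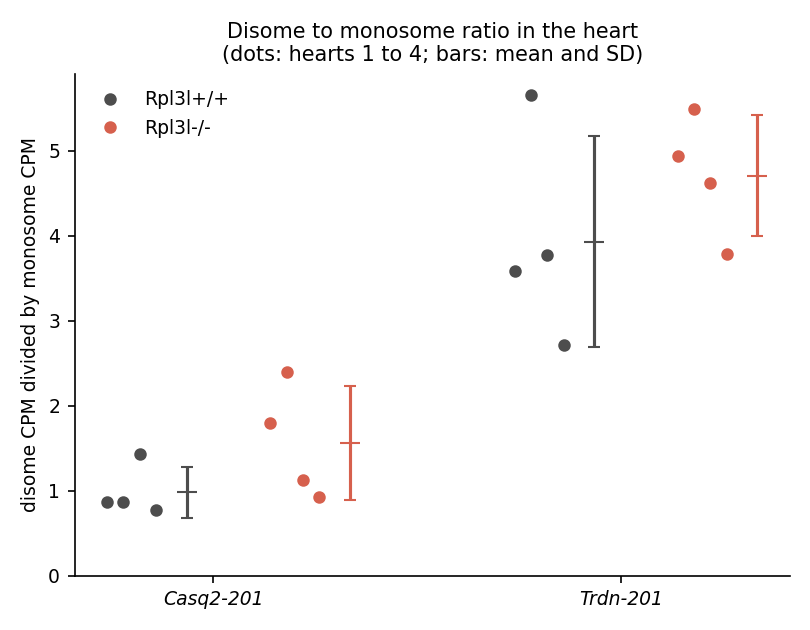
Disome to monosome ratio of Casq2 and Trdn in each of the 8 hearts, with dots for hearts and bars for the mean and SD of each genotype. Trdn lies at 2.71 to 5.66 and Casq2 at 0.773 to 2.4, and within each gene the genotypes overlap.

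The ratio in Rpl3l-/- against WT heart had a log2 change of 0.63 ± 0.31 for Casq2, a 1.54-fold difference (interval -0.02 to 1.28, edgeR adjusted p = 0.755). For Trdn the change was 0.26 ± 0.27 (interval -0.30 to 0.81, adjusted p = 0.857). None of the 6 member transcripts was called by edgeR or DESeq2, none had an unadjusted p under 0.05, and edgeR called 0% of 1365 transcripts. The Casq2 change moved with single hearts, being 0.88 ± 0.29 without WT heart 3 (edgeR adjusted p = 0.219) and 0.41 without Rpl3l-/- heart 2. Disome counts were the sum of 2 columns a heart, and in WT heart 1 these columns differed. Scaled to the column totals, Casq2 was at 626 CPM in the first and 1441 CPM in the second. Without WT heart 1 the Casq2 change was 0.58 ± 0.35.

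**Figure D3:**
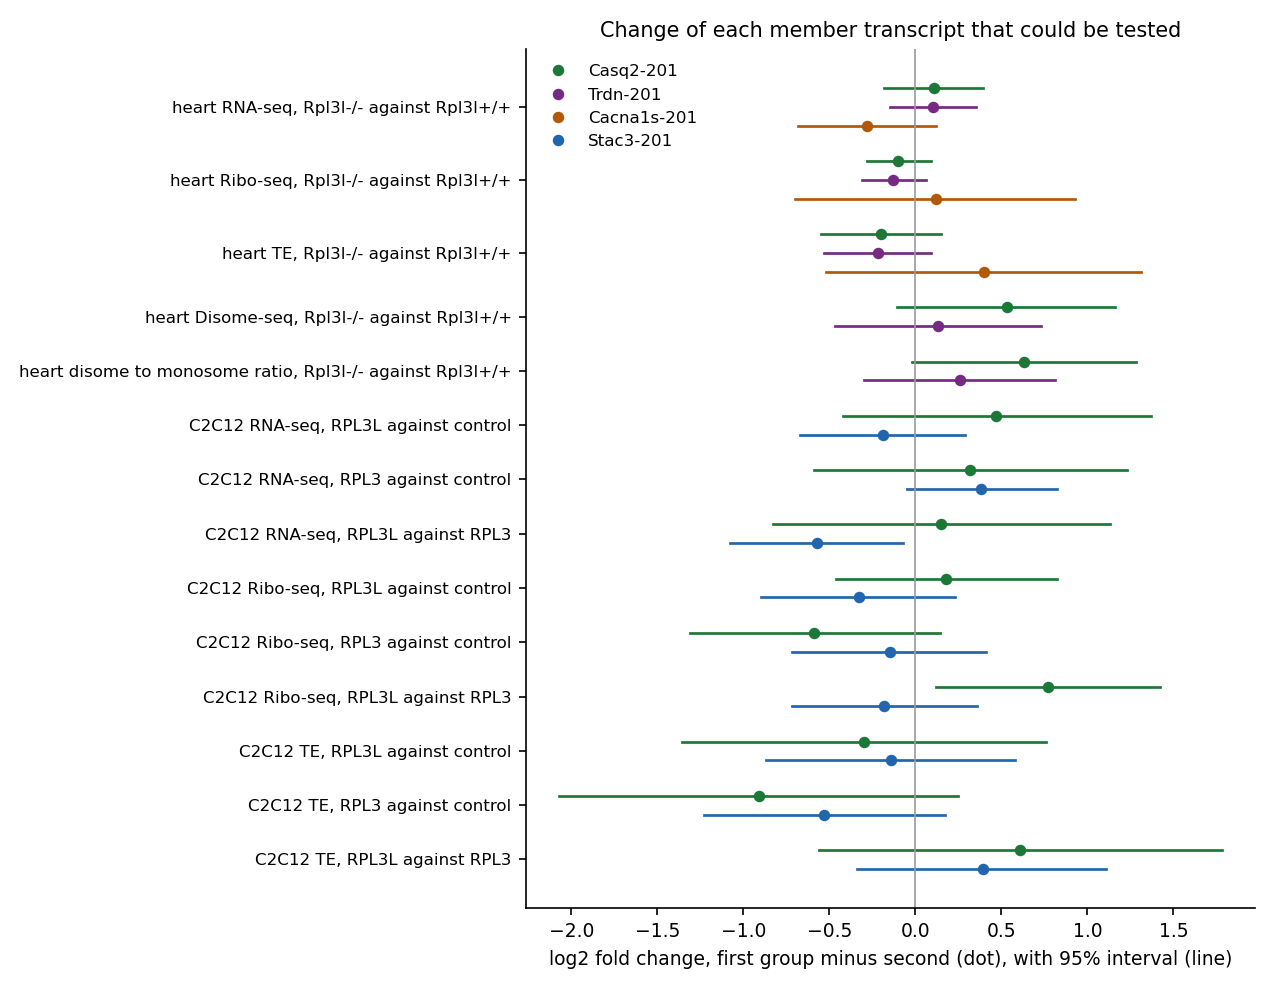
Log2 fold changes (horizontal axis) of the tested genes in each comparison of genotypes or C2C12 arms, as dots with 95% intervals from the edgeR fits as lines. The intervals include 0 except those of Stac3 RNA-seq (-0.57) and Casq2 Ribo-seq (0.77) between the RPL3L and RPL3 arms, neither past an adjusted p of 0.05.

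Trdn reads separated the isoforms only in part, because reads shared by isoforms were counted for each. Trdn-201 has 150.2% more coding bases than Trdn-208, yet its RNA-seq counts were only 5.73% to 16.8% higher in the WT hearts and 8.7% to 12.2% higher in the Rpl3l-/- hearts. In Ribo-seq the surplus was 8.81% to 14.7% in WT and 6.99% to 10.2% in Rpl3l-/- hearts. The surplus is a net value, since the last 44 coding bases of Trdn-208 are its own. The genotypes overlapped, with an exact two-sided permutation p of 0.8 in RNA-seq and 0.229 in Ribo-seq.

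In Disome-seq, Trdn-201 held 413 reads and Trdn-208 held 409 over the WT hearts, and 468 and 462 over the Rpl3l-/- hearts. The counts of the longest and the shortest isoform were thus nearly equal in Disome-seq. The surplus was 0% to 2.44% in WT and 0% to 3.97% in Rpl3l-/- hearts (exact permutation p = 1.0). The transcripts of Casq2, Cacna1s and Stac3 had counts within 1.01-fold of each other and could not be told apart.

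**Figure D4:**
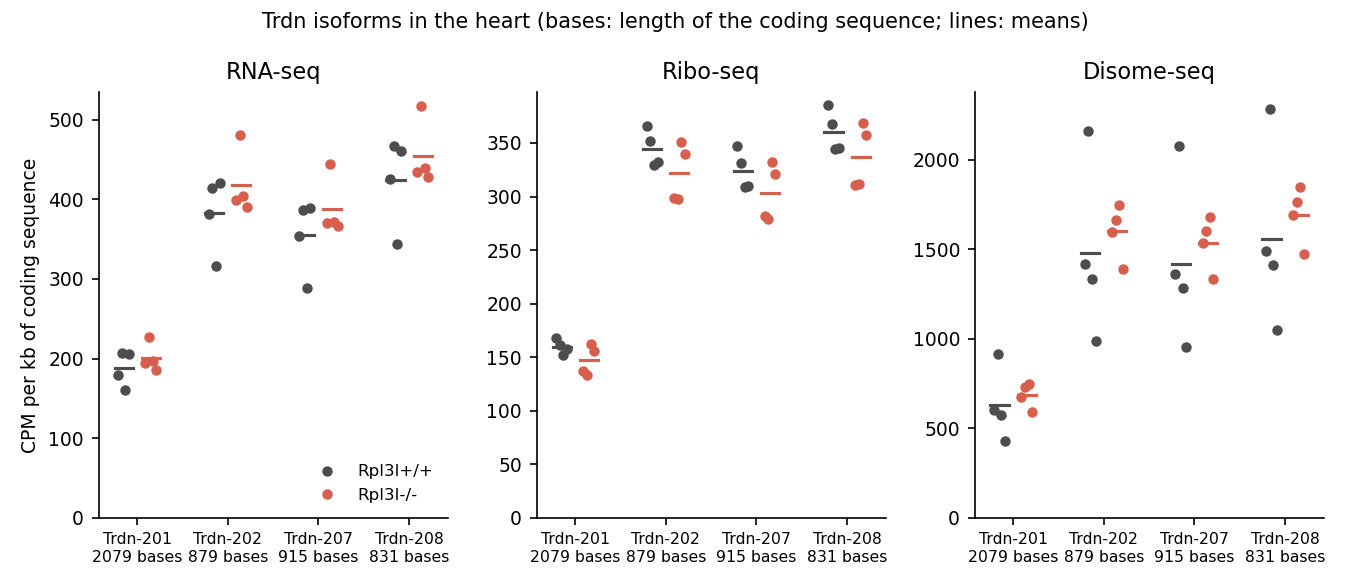
CPM per kilobase of coding sequence of the 4 Trdn transcripts in each heart library of RNA-seq, Ribo-seq and Disome-seq, with Rpl3l+/+ and Rpl3l-/- libraries as dots and means as lines. Per kilobase, Trdn-208 lies 2.14- to 2.37-fold above Trdn-201 in RNA-seq, 2.18- to 2.34-fold in Ribo-seq and 2.41- to 2.5-fold in Disome-seq, where equal counts give 2.5-fold.

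In proliferating C2C12 controls Stac3 was the highest of the 4 genes, and Casq2, Trdn and Cacna1s followed in the order they had in heart. Control RNA-seq gave Stac3 at 2.91 ± 0.49 CPM per kilobase (SD, n = 3), Casq2 at 0.609 ± 0.22, Trdn at 0.266 ± 0.129 and Cacna1s at 0.116 ± 0.0155. The libraries of Trdn-201 and Cacna1s overlapped and those of the other neighbours did not. Trdn-208, at 0.504 ± 0.241 in control RNA-seq, overlapped Casq2, so the order of Casq2 and Trdn there was not settled. Ribo-seq of the control kept the order, at 4.65 ± 0.945, 2.8 ± 0.678, 0.368 ± 0.382 and 0.257 ± 0.16 CPM per kilobase.

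**Figure D5:**
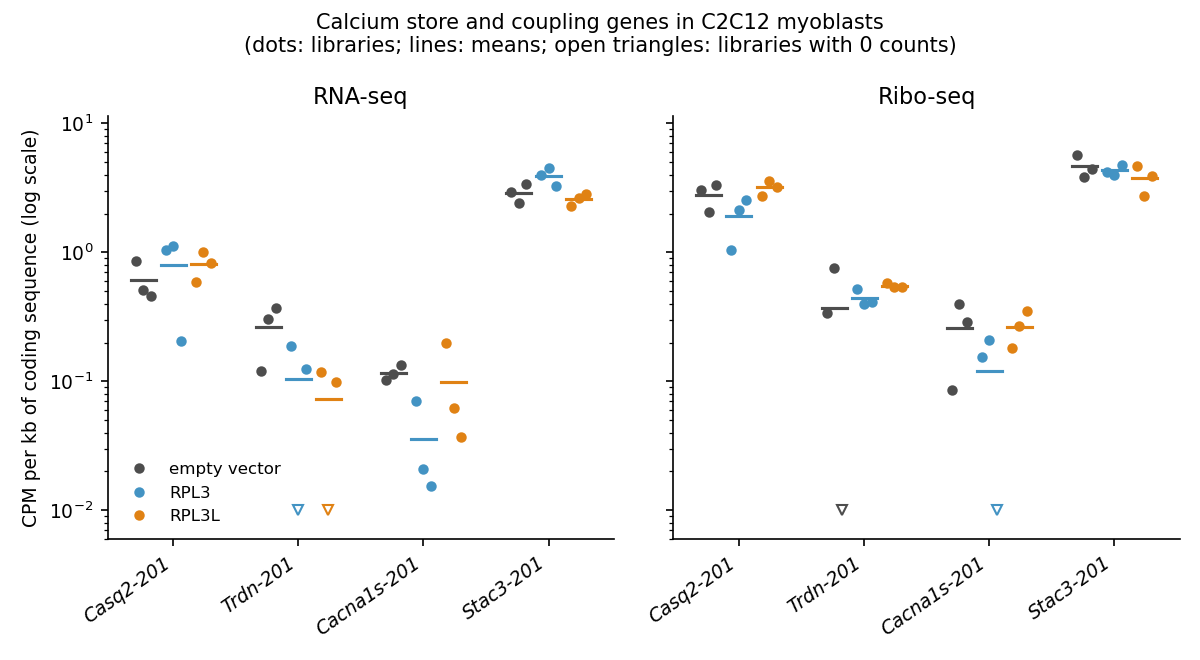
CPM per kilobase of coding sequence, on a log axis, of the 4 genes in each C2C12 library of RNA-seq and Ribo-seq, by arm (empty vector, RPL3 and RPL3L), with libraries as dots, means as lines and libraries with 0 counts as open triangles. Stac3 is the highest in control, at 2.91 in RNA-seq and 4.65 in Ribo-seq, and Cacna1s the lowest, at 0.116 and 0.257.

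Stac3 in RNA-seq was at 3.15, 2.6 and 3.66 CPM in control, 4.33, 4.91 and 3.52 CPM in the RPL3 arm and 2.47, 2.85 and 3.09 CPM in the RPL3L arm. The RPL3L libraries were all below the RPL3 libraries, and the control overlapped both. RPL3L against RPL3 gave a log2 change of -0.57 ± 0.25 (interval -1.08 to -0.07), which missed the threshold after adjustment (edgeR adjusted p = 0.0872). Against control the change was -0.19 ± 0.24 for RPL3L (adjusted p = 0.706) and 0.38 ± 0.22 for RPL3 (adjusted p = 0.258). In Ribo-seq, Stac3 was at 6.13, 4.13 and 4.79 CPM in control, 4.53, 4.3 and 5.17 CPM with RPL3 and 5.04, 2.96 and 4.19 CPM with RPL3L. All 3 arms overlapped there. Marker lists differed between arms too. In RNA-seq the myoblast markers summed to 483 to 497 CPM in control, 316 to 346 CPM with RPL3 and 562 to 579.9 CPM with RPL3L. The fibroblast markers summed to 1107 to 1158, 1945 to 1962 and 1241 to 1283 CPM. Of the 5 fibroblast genes, only Col1a1 and Col1a2 were higher with RPL3 than in control, and Pdgfra, Dcn and Lum overlapped. Col1a1 was at 319 to 352 CPM in control and 754 to 775 CPM with RPL3, and Dcn at 5.99 to 6.72 and 5.67 to 7.6 CPM. The differentiating myocyte markers summed to 79.8 to 88.2 CPM in control, 62.2 to 65.9 CPM with RPL3 and 80.6 to 81.8 CPM with RPL3L. Cdkn1a alone was at 48.5 to 56.5 CPM in control and 41.4 to 44.8 CPM with RPL3. Tnnt3, Mylpf and Myh3 were also lower with RPL3 than in control, and Myog, Myh8 and Ckm overlapped. In the myoblast list, Des and Cdh15 were higher with RPL3L than in control, and Myod1 overlapped. The part of these lists in the values of Stac3 and Casq2 was not tested.

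Casq2 in C2C12 Ribo-seq was at 3.77, 2.54 and 4.16 CPM in control, 1.29, 2.65 and 3.16 CPM with RPL3 and 3.43, 4.45 and 4.03 CPM with RPL3L. The RPL3L libraries were all above the RPL3 libraries, and the control overlapped both. RPL3L against RPL3 gave 0.77 ± 0.32 (interval 0.12 to 1.42, edgeR adjusted p = 0.0942). Against control the change was 0.18 ± 0.32 for RPL3L (adjusted p = 0.786) and -0.59 ± 0.36 for RPL3 (adjusted p = 0.345). In RNA-seq, Casq2 was at 1.07, 0.633 and 0.571 CPM in control, 1.31, 1.4 and 0.258 CPM with RPL3 and 0.74, 1.26 and 1.03 CPM with RPL3L. The arms overlapped, and these values rest on 3 to 17 reads a library.

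Of the 4 member transcripts tested in C2C12, those of Casq2 and Stac3, edgeR and DESeq2 called none in any comparison of arms. At an unadjusted p under 0.05 there were 2 in RNA-seq (Stac3) and 2 in Ribo-seq (Casq2) of RPL3L against RPL3. There were 0 in the other comparisons, TE included. The 2 transcripts of each gene had the same counts there, so each pair is a single result. The share of all transcripts under that unadjusted p is not given, so nothing is read from these counts. For RPL3L against control, 9.05% of all transcripts tested were called in RNA-seq, 11.0% in Ribo-seq and 2.34% in TE. For RPL3 against control the shares were 15.9%, 10.9% and 0.0520%, and for RPL3L against RPL3 they were 26.6%, 18.6% and 0.438%. The 2 comparisons with control share its samples.

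TE in C2C12 was high for Casq2, at 4.6 in control, 2.39 with RPL3 and 3.93 with RPL3L, above 94.1% to 99.1% of 13457 transcripts. For Stac3 it was 1.6, 1.1 and 1.45. The log2 change of Casq2 TE was -0.30 ± 0.53 for RPL3L against control and -0.91 ± 0.58 for RPL3 against control (edgeR adjusted p = 0.857 and 0.726). The latter hung on single RPL3 libraries, being -1.67 without RPL3 library 3 (adjusted p = 0.35), whose Casq2 RNA-seq value rests on 3 reads, and -0.35 without RPL3 library 1 (adjusted p = 0.969).

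Trdn and Cacna1s were too sparse in C2C12 to pass the filter. Trdn had 4, 9 and 23 RNA-seq reads in the control libraries, 3, 0 and 3 with RPL3 and 2, 0 and 2 with RPL3L. Cacna1s had 9, 9 and 22 reads in control, 3, 1 and 1 with RPL3 and 9, 3 and 2 with RPL3L. Summed over a group and scaled to depth, Trdn was at 0.602 CPM in control (exact Poisson 95% interval 0.422 to 0.833), 0.215 CPM with RPL3 (0.079 to 0.469) and 0.151 CPM with RPL3L (0.0411 to 0.386). Cacna1s was at 0.669 CPM in control (0.478 to 0.911), 0.179 CPM with RPL3 (0.0583 to 0.419) and 0.528 CPM with RPL3L (0.288 to 0.885). For Cacna1s every RPL3 library was below every control library, and for Trdn every RPL3L library was below every control library. Trdn in control library 1 (0.252 CPM) and RPL3L library 1 (0.247 CPM) nearly met, and the other arms overlapped. The share of all transcripts with arms apart is not given, so nothing is read from such separations, here or for Stac3 and Casq2. In Ribo-seq the sums ran another way, Trdn being at 0.753 CPM in control, 0.924 CPM with RPL3 and 1.15 CPM with RPL3L, and Cacna1s at 1.32, 0.782 and 1.52 CPM, from 8 to 25 reads a group. With the filter lifted none of these differences was called in either assay, the lowest edgeR adjusted p being 0.0848 for Cacna1s RNA with RPL3.

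WT heart was set against control C2C12 to place the 4 genes between the tissue and the myoblast. A transcript high in one of them passes the filter through it, so the calls of the members carry no weight as a count. All 11 member transcripts were called in RNA-seq, 9 higher and 2 lower in heart, against 81.8% of 15835 transcripts called, 37.9% higher and 43.9% lower. As a description, with no test drawn from it, the fitted log2 difference was 10.06 for Casq2, 9.98 for Trdn, 5.74 for Cacna1s and -2.38 for Stac3, the last from 11 reads in WT heart. Heart was a tissue of many cell types and C2C12 a cultured line, and the parts of cell type and preparation cannot be told apart. The median of all transcripts was -0.19 here, and -0.84 when scaled by library totals.

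In Ribo-seq, the 6 transcripts of Casq2 and Trdn passed the filter and were higher in heart, by 8.78 and 9.02 on the log2 scale, a direction that the filter fixed for Trdn, with 8 reads in control C2C12. In this comparison 83.9% of 14250 transcripts were called and 39.4% were called higher. TE was lower in heart than in C2C12 for Casq2, by -1.25 ± 0.33 on the log2 scale (edgeR adjusted p = 0.00357). For Trdn the fitted TE difference was -0.88 ± 0.67. Trdn passed the filter through heart alone, with 3, 5 and 0 Ribo-seq reads in the control C2C12 libraries, so no test is drawn from it. Of the 6 member transcripts, the 2 of Casq2 were called in TE, where 47.8% of 13989 transcripts were called. Without control replicate 3 the Casq2 TE difference was -0.92 (edgeR adjusted p = 0.0697), so for Casq2 the side of the threshold depended on that library. C2C12 Casq2 rests on 43 RNA-seq reads over the control. The Trdn value without that library was -1.86, given as a description only.

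Other genes of calcium handling were taken from a list of 58, of which 28 were in the table. Ryr2, Atp2a2, Cacna1c, Jph2 and Slc8a1 were among those absent, so the results do not cover the whole of cardiac calcium handling. In heart, 27 were tested in RNA-seq, 24 in Ribo-seq and TE and 6 in Disome-seq and its ratio, and edgeR called none in any of them. At an unadjusted p under 0.05 there were 3 in Ribo-seq, 1 in the ratio and 0 in the other 3. The share of all transcripts under that p is not given, so nothing is read from these counts. The median log2 change of the list was -0.05 in RNA-seq, against 0.0 over all transcripts tested, and 0.43 in the disome to monosome ratio, against 0.04. Cav3, the muscle caveolin, had a Ribo-seq change of 0.33 ± 0.12 (adjusted p = 0.191), and Sln, an inhibitor of the reticulum calcium pump, one of -0.27 ± 0.11 (adjusted p = 0.243). Camk2d, a calcium-dependent kinase, had a ratio change of 0.90 ± 0.37 (edgeR adjusted p = 0.685), and Hrc, a calcium-binding protein of the reticulum that also binds triadin, one of 0.80 ± 0.40 (adjusted p = 0.755).

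In C2C12, 18 genes of the list were tested in RNA-seq and 20 in Ribo-seq, and their calls are to be read against the shares of all transcripts called, which were 9.05% and 11.0% for RPL3L and 15.9% and 10.9% for RPL3 against control and 26.6% and 18.6% for RPL3L against RPL3. With RPL3L against control, Rem1, which restrains L-type channels, rose in RNA-seq by 0.35 ± 0.10 (edgeR adjusted p = 0.0121), the 1 call of 18. In Ribo-seq, 2 rose and 2 fell, with Cacnb2, a channel beta subunit, at -1.26 (adjusted p = 0.00365) and Orai1, the store-operated entry channel, at -0.38 (adjusted p = 0.0362). With RPL3 against control, 2 rose and 4 fell in RNA-seq and 1 rose and 3 fell in Ribo-seq, Rem1 falling by 0.30 and 0.40 on the log2 scale. RPL3L against RPL3 gave 5 higher and 4 lower in RNA-seq and 4 higher and 2 lower in Ribo-seq, with Rem1 at 0.64 and 0.70. None was called in TE in any of the 3 comparisons.

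Between WT heart and control C2C12, 25 genes of the list were tested, and 15 were higher and 8 lower in heart RNA-seq, 16 higher and 9 lower in Ribo-seq and 7 higher and 4 lower in TE. Of all transcripts, 81.8%, 83.9% and 47.8% were called in these assays, so nothing is read from the counts of the list. Hrc stood at 1996 CPM in heart RNA-seq and 0.39 CPM in C2C12, and Pln, the phosphorylatable inhibitor of the calcium pump, at 1446 CPM in heart with no read in C2C12. Tmem38a, a potassium channel of the reticulum, was at 262 CPM in heart and 9.61 CPM in C2C12, and Cacnb3, a channel beta subunit, at 2.95 and 87.4 CPM. Like the members, these genes could pass the filter through the source where they are high.

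The genes whose log2 CPM followed each member most closely over the 8 heart RNA-seq libraries were sought among 4919 genes. For Casq2 they were Ctnna1, Pcca and Sec23ip (Pearson r = 0.96, 0.954 and 0.93). For Trdn they were Rpsa, Lzts2 and Mrps18c (r = 0.99, 0.98 and 0.97), and for Cacna1s Zfp655, Pyroxd1 and Cd59a (r = 0.925, 0.921 and 0.92). Without the 2 libraries farthest from the median, r for Cd59a was 0.505. Casq2 and Trdn did not follow each other, with r = -0.567 and a Spearman rho of -0.762. No member averaged 50 reads in C2C12 RNA-seq, the minimum set for this search, so none was placed there. These points share library depth and composition, and the values are descriptions.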

How the data were processed

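RNA-seq, Ribo-seq, Disome-seq (heart only) and m6A-seq (heart, 3 per genotype) were used, and 6 tRNA libraries were not analysed here. Per the labels and methods, the authors trimmed reads with cutadapt, removed ribosomal RNA and aligned with STAR to the GRCm38.p6 transcriptome, with multiple mapping allowed and duplicates removed by UMI-tools, and featureCounts is in the submitters' processing notes. The deposited table holds raw read counts per transcript, each on 2 identical lines, of which 1 was used. It holds genes of the plus strand only among the 23662 of 23877 transcripts matched to GENCODE M21. The m6A table holds deposited counts and TPM per peak, computed by the authors.

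The counted region was not given in the sources used here, and was inferred to be the coding sequence, since 97.6% of 2812 isoform pairs with one coding sequence had RNA-seq counts within 1%, against 24.1% of 19166 pairs whose coding sequences differ. Disome columns of one number were summed. Each assay was scaled by TMM and fitted with edgeR 4.0.16 (quasi-likelihood, R 4.3.3) over transcripts averaging 10 or more counts in each assay, with Benjamini-Hochberg adjustment over all of them, two-sided, at 0.05. DESeq2 1.42.0, library totals, no filter, a replicate block and leaving out each replicate were alternatives. Fits were tested on simulated data. Intervals and floors (3 counts) cover counting error only.

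The members and the gene lists were chosen with earlier results of these data known. The rule named the transcript of each member with most reads (within 0.1%, the first by name), the list genes of lowest p in each comparison, and the closest genes by correlation.

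Replicate numbers did not pair genotypes: same-numbered WT and Rpl3l-/- libraries had correlations of -0.22 to -0.06 in RNA-seq, -0.19 to 0.32 in Ribo-seq and -0.4 to 0.23 in Disome-seq. Ribo-seq and Disome-seq of one number correlated at 0.15 to 0.40, which is why the ratio was also taken per heart. RNA-seq and Ribo-seq of one number correlated at 0.15 to 0.23 in WT but at -0.5 to 0.44 in Rpl3l-/- hearts, and at -0.04 to 0.04 in C2C12. For TE the numbers may therefore not mark the same sample, and no TE is given per heart. The replicate block, as an alternative, did treat equal numbers within a group as the same sample in TE.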

Additional observations from a re-analysis of the deposited data

Results flagged for a closer look

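Casq2 in WT Disome-seq library 3 stood far from the other WT libraries, at 1797 CPM against 976 to 1073 CPM. These values are TMM-scaled, and the gap was taken on that scale alone. Scaled to column totals, library 3 was at 1527 and 1629 CPM in its 2 columns, and the other WT columns at 626 to 1441 CPM. On the TMM scale the gap took 0.882 of the range, above Dixon's 95% critical value for 4 samples. Of 16 groups of 4 checked, this was the 1 that passed, and chance gives about 1 in 20.

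An m6A peak, from RNA pulled down with an antibody to N6-methyladenosine and not used in the comparisons above, lay on Casq2, the only one of 3181 peaks on a member. It is shown because it lies in the last exon, 184 bases before the stop codon.
Casq2 m6A peak, chr3:102145198-102145244, plus strand: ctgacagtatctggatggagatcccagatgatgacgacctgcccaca
Its level was 1877, 2004 and 1852 TPM in WT and 2440.2, 2189 and 2221 TPM in Rpl3l-/- hearts, with means of 1911 ± 81.5 and 2283 ± 137 (SD, n = 3). All Rpl3l-/- hearts were above all WT hearts, a log2 difference of 0.26 with an exact two-sided permutation p of 0.1, the smallest that 3 against 3 allows. Of 2338 peaks with a mean count of at least 10, 6.89% had every Rpl3l-/- heart above every WT heart and 9.15% every one below. No input was in the table, so the RNA level is part of these values.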

How the results depend on the processing

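No member was called in any comparison of genotypes or of C2C12 arms under any alternative run, and no called result changed direction. With the replicate block, edgeR called 0 members in each, and the Casq2 disome to monosome change was 0.62 (adjusted p = 1.0). Over all alternatives that change was 0.41 to 0.88 (adjusted p 0.176 to 1.0) and that of Trdn 0.14 to 0.48. Without a filter, 11 member transcripts were called in Ribo-seq of WT heart against control C2C12 in place of 6, and 5 in TE in place of 2. Cacna1s-201 was then called at 2.31 ± 0.46 in Ribo-seq and -3.38 ± 0.65 in TE (edgeR adjusted p = 0.000199 and 0.000224). It had missed the filter in this comparison with a mean Ribo-seq count of 9.86. Leaving out 1 library at a time gave 2 to 5 TE calls there, with 5 without control replicate 1, 5 without control replicate 2, 4 without control replicate 3 and 5 without WT heart replicate 4. No block could be fitted for heart against C2C12. Over all transcripts, edgeR and DESeq2 called 2 and 11 in heart RNA-seq, 83 and 185 in Ribo-seq, 0 and 22 in TE, 2 and 0 in Disome-seq (3 with no filter) and 0 and 25 in the ratio. In C2C12 Ribo-seq they called 1512 and 675 for RPL3L and 1508 and 718 for RPL3 against control, and 2568 and 1220 for RPL3L against RPL3. In TE they called 7 and 21 for RPL3 against control (13 with library totals, 14 with the block) and 59 and 39 for RPL3L against RPL3. The causes were not tested. Disome depth limits the genes of low level, with 39016 to 175747 reads a library.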
